A study of Mus musculus with 15 samples.

Results

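The nuclear genes for the subunits of the mitochondrial respiratory chain and of the ATP synthase were examined in RNA-seq libraries of mouse group 2 innate lymphoid cells (ILC2s) and of their bone marrow precursors. The genes were chosen by symbol alone, as every entry whose name starts as a subunit of complex I (Nduf), complex II (Sdh), complex III (Uqcr), complex IV (Cox4 to Cox8) or complex V (Atp5), leaving out entries that join several genes. This gave 84 of the 24690 entries of each library, of which 37 belonged to complex I, 4 to complex II, 8 to complex III, 18 to complex IV and 17 to complex V. Atp5s, Atp5sl and Cox7a2l carry such a name but are not structural subunits, and Ndufa4 was kept with complex I by its symbol although it is known as a subunit of complex IV. Genes encoded in mitochondrial DNA had no entry and were not analysed here.

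The study asked how loss of TGF-β signaling changes ILC2s and their precursors, and sequenced 15 libraries. ILC2s were sorted from the intestinal lamina propria (LP) as CD45+Lin-CD127+Sca-1+CD25+KLRG1+ cells, in 4 libraries labelled WT and 3 labelled Tgfbr2-/-. ILC2 precursors (ILC2p) were sorted from bone marrow (BM) as CD45.2+Lin-CD127+α4β7+CD25+ cells, in 4 libraries labelled WT and 4 labelled Tgfbr2-/-. Each cell type was sequenced in 2 experiments, and experiment 2 of the ILC2s holds 1 Tgfbr2-/- library. All donors were C57BL/6 mice of 8 to 12 weeks carrying Tgfbr2 f/f and ER-Cre+, in which tamoxifen activates the recombinase and deletes the floxed part of the TGF-β receptor gene. Tgfbr2-/- therefore means tamoxifen at 1 mg per day for 5 days, and WT means sunflower oil given to mice of the same alleles. The promoter that drives ER-Cre is not given in the sources used here, so deletion in other cells of these mice cannot be told apart from deletion in the sorted cells. The ILC2p came from chimeras, lethally irradiated CD45.1 hosts that received treated and CD45.1 marrow mixed in equal parts 6 weeks before. The ILC2s came directly from treated mice, which by the study's methods were killed 1 day after the last dose. Cell type, tissue, mouse model, time since treatment and experiment therefore change together between ILC2s and ILC2p and cannot be told apart. The labels do not say which libraries came from separate mice, so the p-values below measure the spread between these libraries, which may be technical. Total counts on genes were 12167066 to 32114265 per ILC2 library and 10957021 to 35961215 per ILC2p library.

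The respiratory chain sits in the inner mitochondrial membrane. Complexes I and II take electrons from NADH and succinate to ubiquinone, complex III passes them to cytochrome c, and complex IV hands them to oxygen. Complexes I, III and IV pump protons, and complex V, the ATP synthase, uses the returning protons to make ATP. Most subunits are needed in fixed proportion in nearly every cell, but several complex IV subunits have a second isoform that is restricted to tissues such as heart, muscle or testis.

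The libraries were checked against their labels first, in CPM, the count of a gene relative to the total of its library corrected by the TMM factor of edgeR. Tgfbr2 stood at 171.9, 261.8, 147.2 and 206.4 CPM in WT ILC2s and at 206.0, 184.0 and 96.11 CPM in Tgfbr2-/- ILC2s. WT ILC2p had 0.714, 232.8, 107.3 and 188.2 CPM, and Tgfbr2-/- ILC2p had 87.23, 130.0, 30.83 and 218.5 CPM. The genotypes overlapped in both cell types, and a count over the whole gene does not measure the deleted part, so it does not check the labels. The low WT library, ILC2p replicate 1 of experiment 1, had 8 counts on Tgfbr2, deleted part included. That is not what a WT label implies, and its cause was not tested. The library was kept as WT by its label, and it also had the largest share of gaps described below.

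The summed level of 10 defining ILC2 genes, with Gata3 the most abundant, was 10130 to 11036 CPM in WT ILC2s, 8199 to 10603 CPM in Tgfbr2-/- ILC2s, 8281 to 12126 CPM in WT ILC2p and 3837 to 5787 CPM in Tgfbr2-/- ILC2p. Areg, the gene of the ILC2 product amphiregulin, had 0 counts in both Tgfbr2-/- ILC2p libraries of experiment 1, and none of the 10 genes was at 0 in the other 13 libraries. Genes of neutrophils and monocytes stood apart. The sum over 9 of them was 0 to 129.2 CPM in all ILC2 libraries, 806.3 to 1588 CPM in WT ILC2p and 84218 to 101209 CPM in Tgfbr2-/- ILC2p, although the lineage gate used CD11b and Gr-1. In Tgfbr2-/- ILC2p, 7 of these 9 genes were called higher than in WT, and the most abundant of the 9 there were S100a8 and Ngp, at medians of 24851 and 16612 CPM. Mast cell and basophil genes went the same way, with 110.9 to 297.5 CPM in WT ILC2p and 1209 to 1583 CPM in Tgfbr2-/- ILC2p. Proliferation genes summed to 439.0 to 737.3 CPM in ILC2s, 848.1 to 1387 CPM in WT ILC2p and 2341 to 3336 CPM in Tgfbr2-/- ILC2p. Epithelial genes summed to at most 42.1 CPM in the 4 ILC2 libraries of experiment 1 and to 231.5, 530.1 and 1419 CPM in those of experiment 2. What these transcripts contribute to the values of the subunits was not tested. In such bulk libraries, fewer cells of a type and less RNA per cell cannot be told apart.

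The 84 subunit genes together took about the same part of every library. Their share of all counts was 1.24%, 1.05%, 1.10% and 1.18% in WT ILC2s and 1.17%, 1.16% and 1.18% in Tgfbr2-/- ILC2s. In WT ILC2p it was 1.20%, 1.01%, 1.07% and 1.15%, and in Tgfbr2-/- ILC2p it was 1.24%, 1.16%, 1.11% and 1.09%. The 4 groups overlapped, and the whole span was 1.01% to 1.24%, wider than the 95% Wilson interval of any single library, although the intervals of libraries with close shares overlapped. Such intervals cover counting error only.

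**Figure D1:**
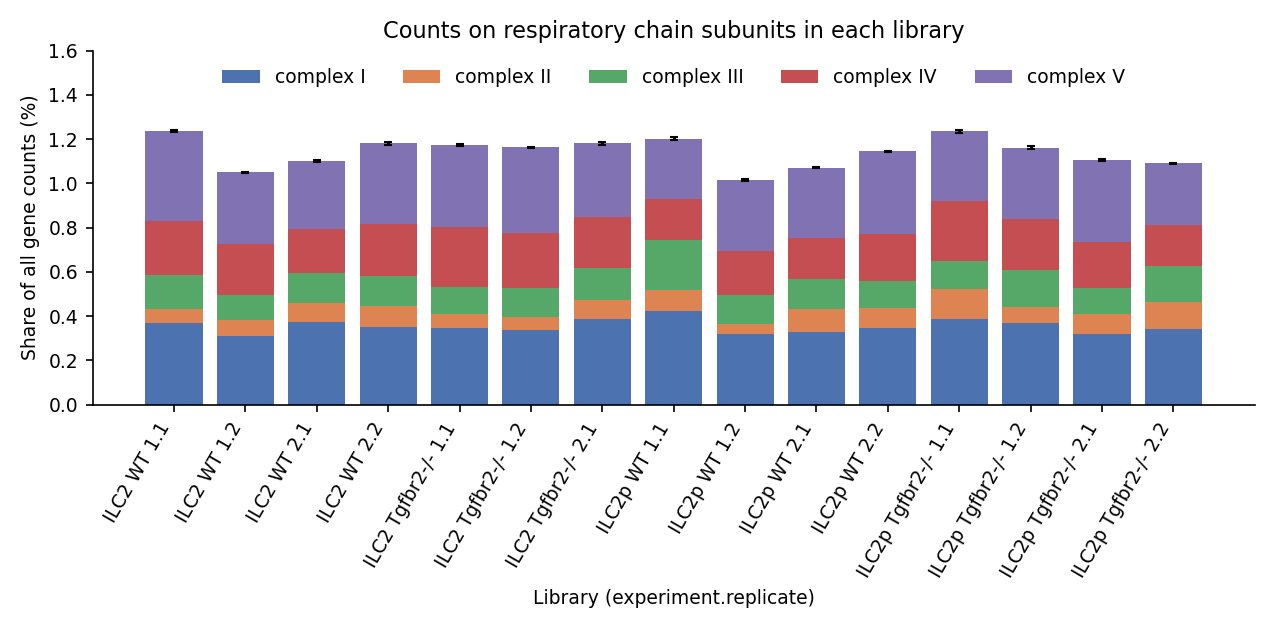
Share of all gene counts (%) taken by the 84 subunit genes in each of the 15 libraries, stacked by complex I to V, with the 95% Wilson interval of the total as error bars. All libraries lie between 1.01% and 1.24%, and the groups overlap.

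On the TMM scale the sum was 9636 to 12933 CPM in WT ILC2s, 10407 to 11506 CPM in Tgfbr2-/- ILC2s, 9440 to 13172 CPM in WT ILC2p and 11359 to 14647 CPM in Tgfbr2-/- ILC2p, and these ranges overlapped within both cell types. Complex IV alone did not overlap in ILC2p, with 1781 to 2056 CPM in WT and 2139 to 3187 CPM in Tgfbr2-/-, nor did complex V, with 2977 to 3258 CPM in WT and 3455 to 3790 CPM in Tgfbr2-/-. Scaled by library size only, both overlapped (1859 to 2138 against 1847 to 2688 CPM for complex IV, and 2724 to 3738 against 2794 to 3691 CPM for complex V), so this separation rests on the TMM factors.

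Of the 84 genes, 74 had at least 1 count in every library, and 74 reached a median of 10 CPM over the 15 libraries. Atp5s lay between 1 and 10 CPM, and 9 genes had a median under 1 CPM. Levels between genes were compared as RPKM, the deposited value that divides reads by transcript length and by sequencing depth. Among the genes at 10 CPM or more, the median level was 110 RPKM for complex I (from 24.3 for Ndufs1 to 442 for Ndufa3), 127 RPKM for complex II (from 121 for Sdhc to 195 for Sdhb), 253 RPKM for complex III (from 79.0 for Uqcrc2 to 383 for Uqcr10), 292 RPKM for complex IV (from 81.0 for Cox7b to 872 for Cox4i1) and 185 RPKM for complex V (from 25.7 for Atp5sl to 530 for Atp5b). Within complex I the span was 18.2-fold, and within complex II it was 1.62-fold. The levels of the 74 genes in ILC2s and in ILC2p followed nearly the same order (Spearman rho 0.941 across genes, a description, since the points share libraries and gene lengths).

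**Figure D2:**
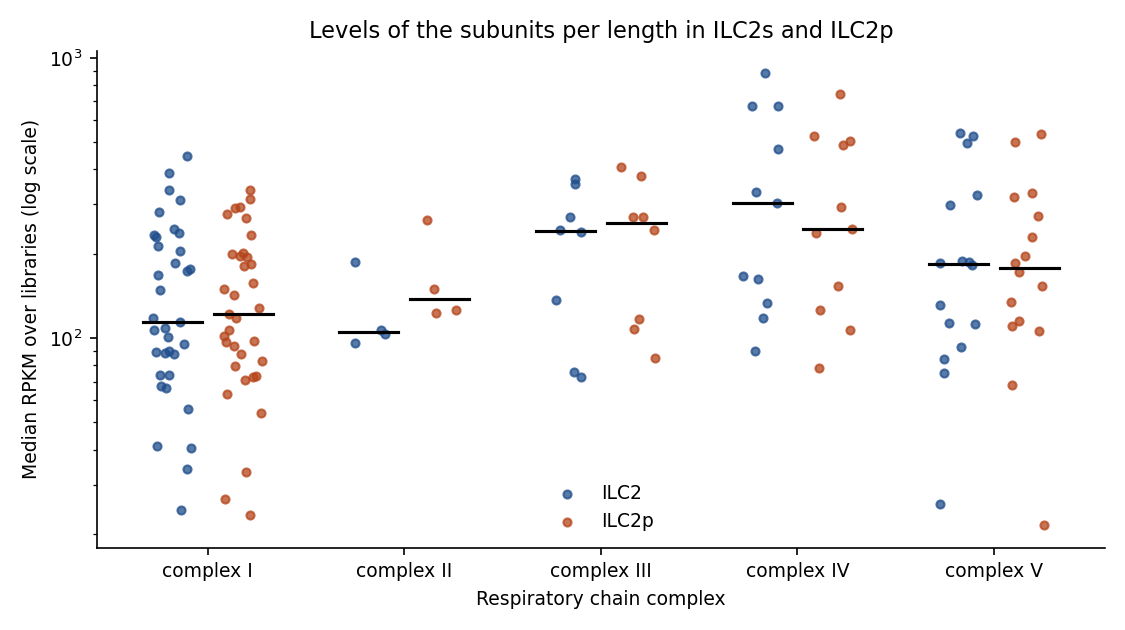
Median RPKM (log axis) of each subunit gene in ILC2s and in ILC2p, by complex, for the 74 genes whose median reached 10 CPM. Each point is a gene and each black line the median of the complex, and Cox4i1 is the highest gene at 872 RPKM over all libraries.

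The 2 most abundant genes of each complex were taken by their median RPKM over all 15 libraries. In complex I they were Ndufa3 and Ndufa2, accessory subunits, at 442 and 347 RPKM. In complex II they were Sdhb, the iron-sulphur subunit, at 195 RPKM and Sdha, the flavoprotein that oxidizes succinate, at 132 RPKM. In complex III they were Uqcr10 at 383 RPKM and Uqcrh, the hinge protein, at 329 RPKM. In complex IV they were Cox4i1, the common isoform of subunit IV, at 872 RPKM and Cox6a1 at 617 RPKM. In complex V they were Atp5b, the catalytic β subunit, at 530 RPKM and Atp5e, a small subunit of the central stalk, at 509 RPKM. Within a single cell type some of these ranks differed. By the median of the ILC2p libraries, Ndufb7 was the highest of complex I, and Ndufa3 was not among the 2 highest. Uqcr11 stood above Uqcrh there, and Atp5e above Atp5b. By the median of the ILC2 libraries, Atp5d stood above Atp5e. The 2 genes of complex II and of complex IV were the same in both cell types. The rotating c ring of complex V is encoded by 3 genes for the same mature protein, and these stood at 108 RPKM for Atp5g1, 75.1 RPKM for Atp5g2 and 115 RPKM for Atp5g3, so none of the 3 was missing. Many subunit genes have near-identical processed copies elsewhere in the genome, and reads with up to 15 hits were kept by the authors, so the level of a single gene can hold reads of its copies.

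The isoforms restricted to other tissues were at or near 0 in most libraries, Cox6b2 in some ILC2p libraries excepted. Cox6a2, Cox8b and Cox8c, the heart, muscle and testis isoforms of subunits VIa and VIII, had 0 counts in all 15 libraries, as had Cox7b2. A count of 0 allows up to 0.0727 CPM in the deepest library and up to 0.311 CPM in the shallowest (3 counts, on the TMM scale). Cox4i2, a lung isoform of subunit IV, had 11 and 5 counts in 2 of the Tgfbr2-/- ILC2 libraries and 0 in the other 13. Cox7a1, the muscle isoform of subunit VIIa, had 0 to 35 counts in the ILC2 libraries. In ILC2p it had 59 counts in WT replicate 1 of experiment 2 and 0 in the other 7. Cox6b2, a testis isoform, had 0 to 72 counts in ILC2s and 0 to 305 counts in ILC2p, where WT replicate 1 of experiment 1 reached 27.2 CPM and the Tgfbr2-/- libraries of experiment 2 reached 10.4 and 11.7 CPM. Ndufa4l2, the hypoxia-regulated relative of Ndufa4, had 84 counts in WT ILC2 replicate 2 of experiment 2, 1 count in one WT ILC2p library and 0 elsewhere. Ndufs5 had 1 count in all libraries together, but its RPKM values imply a counted length of 25 bases, so it could not be measured here.

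Promoter sequences are shown for 4 of these genes because the nuclear genes of the chain are classically linked by shared motifs of the factors NRF1, GABPA and YY1. RefSeq windows (GRCm38.p6) from 250 bases before to 50 after the start were on hand for 69 of the 84 genes, in 75 windows. The stretches below run from 150 bases before the start to 30 after it, on the gene's own strand, with motif matches in capitals. Cox8a holds the GABPA letters on the other strand, Ndufa3 the YY1 letters, and Uqcr11 the GABPA and NRF1 letters, while Atp5d, the 1 gene called between cell types, holds none of them in either of its 2 windows, of which the first is shown.
Atp5d, chr10:80142125-80142304, plus strand: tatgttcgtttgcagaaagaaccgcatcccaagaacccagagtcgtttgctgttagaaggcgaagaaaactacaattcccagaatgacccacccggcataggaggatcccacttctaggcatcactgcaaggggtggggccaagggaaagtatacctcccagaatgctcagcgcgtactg
Cox8a, chr19:7217587-7217766, minus strand: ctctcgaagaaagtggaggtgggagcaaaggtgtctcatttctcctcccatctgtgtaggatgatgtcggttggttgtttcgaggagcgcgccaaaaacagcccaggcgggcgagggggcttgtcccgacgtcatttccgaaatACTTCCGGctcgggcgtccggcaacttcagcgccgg
Ndufa3, chr7:3617223-3617402, plus strand: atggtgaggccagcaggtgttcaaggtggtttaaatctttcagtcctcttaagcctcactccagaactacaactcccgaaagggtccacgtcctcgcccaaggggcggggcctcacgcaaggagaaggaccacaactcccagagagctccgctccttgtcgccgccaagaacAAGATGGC
Uqcr11, chr10:80406792-80406971, minus strand: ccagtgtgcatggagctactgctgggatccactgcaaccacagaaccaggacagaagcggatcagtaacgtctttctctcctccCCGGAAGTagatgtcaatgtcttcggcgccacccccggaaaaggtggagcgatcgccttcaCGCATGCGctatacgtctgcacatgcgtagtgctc

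The letters searched, on both strands, were CGCATGCG for NRF1, which reads the same on both strands, CCGGAAGT for GABPA and AAGATGGC for YY1. The NRF1 letters were in 9 of the 75 windows, against 1.87% of all 32851 promoter windows. The YY1 letters were in 12 of the 75 (2.75% of all windows) and the GABPA letters in 5 of the 75 (3.89% of all windows). At least 1 of the 3 was in 24 windows of 23 genes, 32.0% against 8.07% of all windows. Windows of related genes are not independent, and a match to these letters is a description and not a measured binding site.

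Within a cell type the subunit genes had a lower median variation between libraries than all entries at 50 CPM or more. In ILC2s the coefficient of variation over the 7 libraries had a median of 17.6% for the 63 subunit genes at 50 CPM or more and of 26.4% for all 3486 entries at that level, and 55 of the 63 were under 25%. In ILC2p the medians over the 8 libraries were 40.3% for 64 subunit genes and 62.3% for 3671 entries, and 5 of the 64 were under 25%. The highest library exceeded the lowest by a median of 1.65-fold in ILC2s and 3.53-fold in ILC2p for the subunit genes, and by 2.13-fold and 13.1-fold for all entries. Of the 60 subunit genes at this level in both cell types, 58 varied more in ILC2p. The steadiest in ILC2s were Atp5c1, the γ subunit of the central stalk, at 4.85%, and Ndufb10, an accessory subunit, at 5.24%, and in ILC2p these varied by 37.3% and 34.6%. The widest in ILC2s was Atp5e at 38.5%, which had 23.4% in ILC2p and was one of the steadiest there.

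The share of counts taken by all 84 genes together had a coefficient of variation of 5.32% over the ILC2 libraries and of 6.42% over the ILC2p libraries, and their sum on the TMM scale one of 9.47% and 16.1%. Complex I held 28.9% to 34.1% of the subunit counts in ILC2s and 28.8% to 35.2% in ILC2p, a similar spread (SD 1.96 and 1.83 percentage points). The other complexes spread more in ILC2p. Complex IV held 18.2% to 23.2% in ILC2s and 15.6% to 21.8% in ILC2p, and complex V held 27.7% to 33.5% and 22.7% to 33.4%. Complex II held 5.16% to 8.02% in ILC2s and 4.68% to 11.4% in ILC2p. Complex III held 10.2% to 12.4% in ILC2s and 10.2% to 14.8% in ILC2p, apart from WT replicate 1 of experiment 1, in which it reached 18.8% with Uqcrc1 at 970.7 CPM. The same Uqcrc1, a core protein of complex III, was at 265.6 to 532.0 CPM in ILC2s and at 285.6 to 839.8 CPM in the other ILC2p libraries.

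Part of the spread in ILC2p came as gaps, in which a gene that was abundant in the other libraries was nearly missing from 1. In ILC2p replicate 1 of WT experiment 1, 14.1% of the entries whose median over the remaining 7 libraries reached 50 CPM were under 1 CPM. The share was 13.8% and 12.1% in the Tgfbr2-/- libraries of experiment 1 and 8.35% in Tgfbr2-/- replicate 2 of experiment 2, between 1.56% and 3.66% in the other 4, and at most 0.0286% in any ILC2 library. Subunit genes with such a gap included 3 of complex I. Ndufs1, the largest core subunit, was at 0.268, 36.9, 15.8 and 60.4 CPM in the WT ILC2p libraries and at 126.4, 101.3, 12.6 and 157.7 CPM in the Tgfbr2-/- ones, against 37.4 to 68.5 CPM in ILC2s. Ndufa10, an accessory subunit, and Ndufv1, the subunit that binds NADH, were at 0.104 and 0.207 CPM in Tgfbr2-/- replicate 2 of experiment 1, and Ndufv1 reached 244.6 CPM in another ILC2p library. These gaps fell in 2 libraries and on different genes in each. Their cause was not tested.

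**Figure D3:**
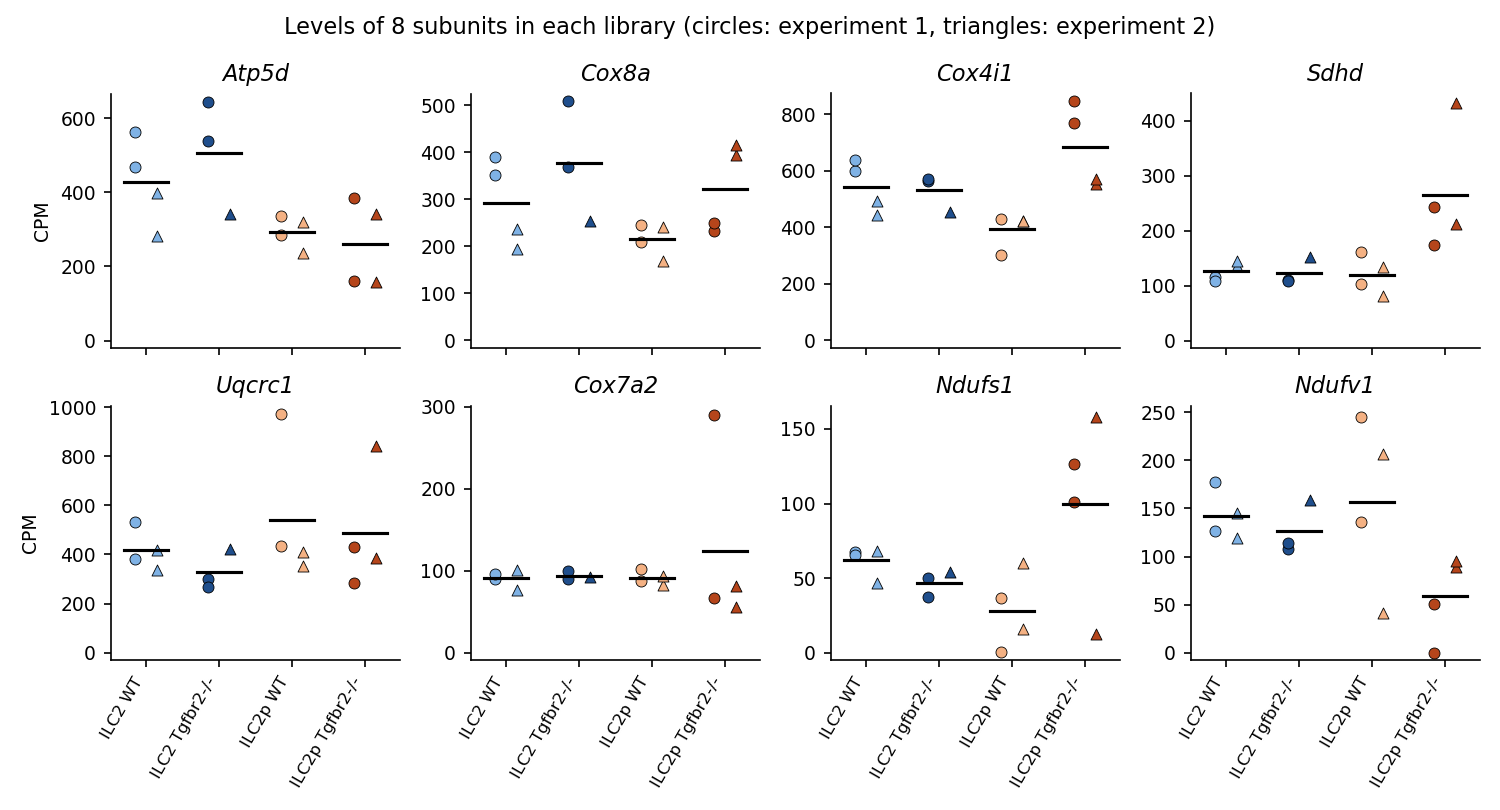
CPM of Atp5d, Cox8a, Cox4i1, Sdhd, Uqcrc1, Cox7a2, Ndufs1 and Ndufv1 in each library by group, with circles for experiment 1, triangles for experiment 2 and a line at the group mean. Single ILC2p libraries stand far from their group for Cox7a2 (289.7 CPM) and Ndufv1 (0.207 CPM), while Cox8a and Atp5d spread about as widely in ILC2s as in ILC2p.

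Between ILC2p and ILC2s, 1 of the 77 subunit genes that could be tested was called (quasi-likelihood test of edgeR, p-values adjusted over all genes, adjusted p under 0.1 and a fold over 1.5, the thresholds of the study's methods). Of all 12806 genes tested, 15.7% were called, among them 8 of 9 neutrophil and monocyte genes and 10 of 15 proliferation genes, higher in ILC2p. At an unadjusted p under 0.05 the counts were 5 of 77 subunit genes, against 22.5% of all genes. The called gene was Atp5d, the δ subunit of the ATP synthase's central stalk (mm9 chr10:79601377-79608563, plus strand, overlapping Dos in the annotation). Atp5d was at 563.6, 468.4, 281.6 and 397.3 CPM in WT ILC2s and at 538.1, 642.8 and 340.3 CPM in Tgfbr2-/- ILC2s. WT ILC2p had 336.6, 285.7, 235.6 and 318.9 CPM, and Tgfbr2-/- ILC2p had 385.4, 159.4, 156.7 and 342.0 CPM. The cell types overlapped, because the ILC2s of experiment 2 reached down into the ILC2p range. The log2 fold change of Atp5d was -0.75 (SE 0.26, 95% interval -1.29 to -0.21, edgeR adjusted p = 0.0705), and the call was made in 13 of 26 alternatives. It was absent in WT libraries alone (log2 fold change -0.55, adjusted p = 0.542), in Tgfbr2-/- libraries alone, with counts summed within experiment and genotype, with no filter, under DESeq2 and in 8 of the 15 fits that left out 1 library. With the 4 ILC2p libraries of many gaps left out, 6 subunit genes were called, against 13.0% of all genes, Atp5g3 and Atp5f1 higher and Ndufs3, Ndufa13, Atp5d and Cox7a2l lower in ILC2p. That fit holds 1 Tgfbr2-/- ILC2p library, replicate 1 of experiment 2, which is assumed to vary like the other groups and in which Ndufs3 was at 11.1 CPM, against 31.3 to 103.3 CPM in the other 14 libraries.

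The members next in order of p did not pass the main test. Sdhb was at 133.2 to 202.3 CPM in the 7 ILC2 libraries and at 123.3 to 422.0 CPM in the 8 ILC2p libraries, a log2 fold change of 0.62 (SE 0.28, edgeR adjusted p = 0.187) that shrank to 0.07 without those 4 libraries. Ndufb9, an accessory subunit of complex I, had 0.56 (SE 0.26, adjusted p = 0.221). Cox7a1 and Atp5s, both at low counts, had -3.77 (SE 1.57, adjusted p = 0.169) and -2.97 (SE 1.31, adjusted p = 0.185). Some alternatives called them. Cox7a1 was called with experiment within cell type as a term and without ILC2p WT replicate 1 of experiment 2, the 1 ILC2p library with counts on it, Ndufb9 with DESeq2, Sdhb without ILC2p Tgfbr2-/- replicate 1 of experiment 2, and Atp5s in 4 of 25 alternatives. All 4 subunits of complex II had positive estimates in ILC2p, from 0.31 for Sdhc to 0.62 for Sdhb with none called, and with upper quartile scaling 3 of the 4 did. Over all subunit genes, 54 of the 77 estimates were positive in the main fit. None of the 74 genes at 10 CPM or more had ranges in the 2 cell types that did not overlap, against 2.48% of 7628 entries at that level.

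The subunit genes differed little in size between the cell types. Their log2 fold changes had a median of 0.19 beside -0.03 over all genes, and a median size of 0.33 beside 0.85. Estimates within 1.5-fold were found for 64 of the 77, against 38.2% of all genes, and the 95% interval lay within 2-fold for 33 of the 77, against 5.78%. Most subunit genes are abundant, while 7628 entries reached 10 CPM and 12806 genes were tested, so all genes include many of low level. No comparison at matched level was made, here or in the comparisons below, so level and membership cannot be told apart in these sizes and shares. The sign of their median followed the scaling, from -0.14 with upper quartile to 0.30 with DESeq2, while the distance to the median of all genes was 0.21 to 0.23 with these scalings. The distance turned to -0.04 with at least 10 counts in every library and to -0.10 in WT libraries only, and it was 0.45 with no filter on low counts.

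**Figure D4:**
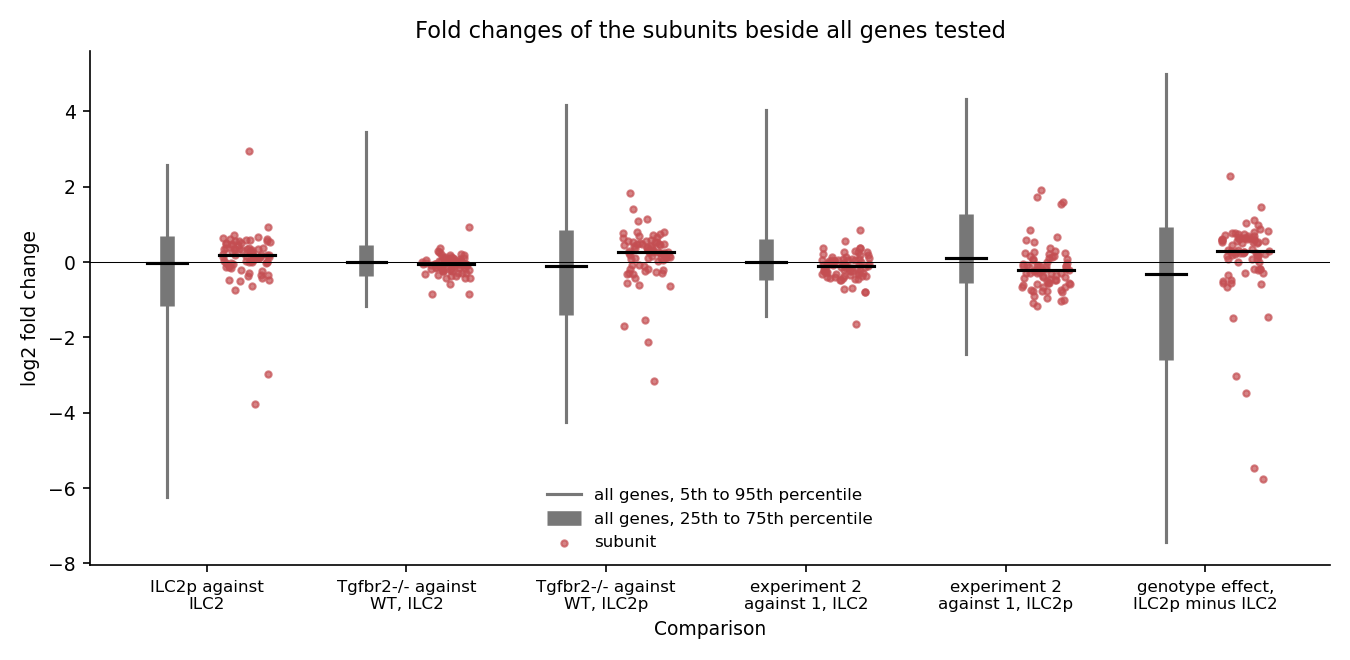
Log2 fold changes of the subunit genes (points) in 6 comparisons, over the 5th to 95th and 25th to 75th percentiles of all genes tested (bars). The points fill a narrower range than all genes in each comparison, and in the genotype comparison of ILC2s 74 of 77 lie within 1.5-fold. All genes include many of low level, and the bars are not matched to the level of the subunit genes.

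Between Tgfbr2-/- and WT ILC2s, no subunit gene of 77 was called, and neither was any of the 11981 genes tested with all 7 libraries and experiment as a covariate (0.00%). At an unadjusted p under 0.05 there were 0 subunit genes, against 4.65% of all genes, and DESeq2 called 338 genes with 0 subunits among them. The estimates were small, with a median of -0.06 beside -0.01 over all genes and a median size of 0.11 beside 0.40. The sign of their median turned with library size scaling (0.03), with upper quartile scaling (0.04) and in experiment 2 alone (0.05). For 65 of the 77 the 95% interval lay within 2-fold, against 24.0% of all genes. The smallest p values were those of Ndufs8 (log2 fold change -0.43), Uqcrh (0.29), Ndufs3 (-0.42), Uqcrc1 (-0.37) and Ndufb3 (-0.58), each with an edgeR adjusted p of 0.898. Ndufs8 and Ndufs3 are core subunits of complex I, Uqcrc1 a core protein of complex III and Ndufb3 an accessory subunit of complex I. In experiment 2 alone the estimates of Ndufs8 and Uqcrc1 turned to 0.03 and 0.18. On the TMM scale, ranges of the genotypes did not overlap for Atp5sl, which was higher in Tgfbr2-/-, and for Ndufc2, which was lower. These are 2 of 74, against 4.94% of all entries, and in RPKM the ranges of both genes overlapped. Atp5sl was at 33.0, 38.1, 37.6 and 29.9 CPM in WT and at 50.3, 51.7 and 38.8 CPM in Tgfbr2-/- ILC2s, a gap of under 1 CPM between the nearest libraries.

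Between Tgfbr2-/- and WT ILC2p, no subunit gene of 75 was called, against 3.47% of 9242 genes. At an unadjusted p under 0.05 there were 2, Cox4i1 and Sdhd, against 9.71% of all genes. These are the groups whose neutrophil and monocyte sums did not overlap above (806.3 to 1588 CPM in WT and 84218 to 101209 CPM in Tgfbr2-/-), and the part of those transcripts in the values below was not tested. Cox4i1 was at 302.7, 429.2, 422.6 and 421.7 CPM in WT and at 846.5, 769.1, 553.4 and 572.4 CPM in Tgfbr2-/-. On this TMM scale every Tgfbr2-/- library lay above every WT library, and those of experiment 1 were the highest. In RPKM the groups overlapped, with WT replicate 2 of experiment 1 at 764 and Tgfbr2-/- replicate 2 of experiment 2 at 728. The log2 fold change of Cox4i1 was 0.75 (SE 0.28, 95% interval 0.12 to 1.38, edgeR adjusted p = 0.359), with 1.12 within experiment 1, 0.34 within experiment 2 and 0.32 without the 4 libraries of many gaps. The last value, like those given below without these 4 libraries, sets a single Tgfbr2-/- library against 3 of WT, in a fit that called 0.202% of all genes. In ILC2s the same gene was at 445.0 to 639.5 CPM in WT and at 453.8 to 572.3 CPM in Tgfbr2-/-, and the estimate was -0.12 (SE 0.13, adjusted p = 0.920).

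Sdhd, a membrane anchor of complex II, was at 161.4, 102.6, 134.3 and 80.8 CPM in WT and at 243.1, 174.5, 211.9 and 432.1 CPM in Tgfbr2-/- ILC2p. The groups did not overlap, although the lowest Tgfbr2-/- library was close to the highest WT library. Its log2 fold change was 1.09 (SE 0.46, edgeR adjusted p = 0.482), with 0.65 within experiment 1, 1.49 within experiment 2 and 0.91 without the 4 libraries of many gaps. Cox5a, subunit Va of complex IV, was the last gene whose groups did not overlap, at 171.8, 70.5, 127.1 and 89.4 CPM in WT and at 191.9, 206.0, 203.1 and 211.6 CPM in Tgfbr2-/- (log2 fold change 0.80, SE 0.47, adjusted p = 0.748). The Tgfbr2-/- libraries were close together, and the spread lay in WT. On the TMM scale these 3 genes of 74 compare with 8.55% of all entries whose genotype ranges did not overlap in ILC2p. In RPKM the ranges of Cox4i1 overlapped, and those of Sdhd and Cox5a did not. Ndufb7 (1.13, SE 0.61, adjusted p = 0.694) and Atp5b (0.58, SE 0.32, adjusted p = 0.709) completed the 5 smallest p values, and both estimates turned negative without the 4 libraries (-0.24 and -0.12).

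By complex, all 4 subunits of complex II had positive estimates in Tgfbr2-/- ILC2p, from 0.43 for Sdhb to 1.09 for Sdhd, and did so with every scaling tried. Over all subunit genes, 55 of the 75 estimates were positive. The 6 widely expressed partners of the tissue-restricted isoforms were also positive, from 0.25 for Cox6b1 to 0.75 for Cox4i1, and 4 of the 6 with upper quartile scaling. Cox7b, the common partner of Cox7b2, was not among the 6 and had -0.29. None of these was called. Sdhc, the other membrane anchor, was at 47.5 to 151.0 CPM in WT and at 150.9 to 240.1 CPM in Tgfbr2-/- ILC2p, so its groups touched (log2 fold change 0.68, SE 0.52, edgeR adjusted p = 0.858). Sdha was at 168.1 to 506.5 CPM in WT and at 225.2 to 800.5 CPM in Tgfbr2-/- (0.45, SE 0.47, adjusted p = 0.905), a wide overlap. Of the partners, Cox6a1 was at 218.3 to 281.4 CPM in WT and at 218.3 to 567.8 CPM in Tgfbr2-/-, and Ndufa4 at 88.0 to 169.2 CPM and 130.3 to 221.0 CPM. For Cox7a2 the estimate and the medians pointed apart. Its log2 fold change was 0.25 (SE 0.69, adjusted p = 0.972), although its median was lower in Tgfbr2-/- (74.5 CPM) than in WT (90.6 CPM), with Tgfbr2-/- replicate 1 of experiment 1 at 289.7 CPM.

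In the c ring, Atp5g1 had medians of 75.5 CPM in WT and 86.9 CPM in Tgfbr2-/- ILC2p, Atp5g2 of 39.9 and 48.0 CPM, and Atp5g3 of 97.0 and 91.5 CPM. All 3 genes overlapped between the genotypes, with estimates from 0.12 for Atp5g3 to 0.49 for Atp5g1, and 1 of the 3 was positive with library size or upper quartile scaling. The 7 core subunits of complex I had 4 positive and 3 negative estimates, from -1.70 for Ndufv1 to 1.85 for Ndufs1, the genes with the gaps described above. Over all 75 genes the median was 0.26 beside -0.10 for all genes, and the median size 0.37 beside 1.08. With upper quartile scaling the median was -0.04. It lay 0.35 to 0.36 above that of all genes with each scaling, but 0.08 above it in experiment 1 alone, 0.16 without WT replicate 2 of experiment 1, 0.19 with at least 10 counts in every library and 0.54 with the replicate number as a block. The interval was within 2-fold for 1 of the 75 genes, against 1.49% of all genes.

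The difference of the genotype effects of ILC2p and ILC2s was tested in a joint fit of the 15 libraries. The time since treatment differs between these effects too, as given above. No subunit gene of 77 was called, against 0.992% of 12806 genes, and 1 had an unadjusted p under 0.05, against 12.1%. That gene was Cox4i1, with a difference of log2 fold changes of 0.88 (SE 0.31, edgeR adjusted p = 0.259), followed by Sdhd with 1.11 (SE 0.56, adjusted p = 0.469). Next were Atp5s with -5.75 (SE 2.93, adjusted p = 0.471) and Cox7a1 with -5.47 (SE 3.04, adjusted p = 0.558), both at low counts, and then Atp5b with 0.65 (SE 0.39, adjusted p = 0.580). Cox7a1 was at 0 in all Tgfbr2-/- ILC2p libraries and had counts in 1 WT ILC2p library, so its fitted value is no bound, and it turned to 0.82 without that library. The median difference was 0.29 beside -0.31 over all genes, with 45 of 77 within 1.5-fold against 24.2%. Its sign followed the scaling, with -0.01 for library size and -0.05 for upper quartile. The distance to all genes was 0.60, and 0.20 with at least 10 counts in every library. Without the 4 libraries of many gaps, Ndufs3 and Cox7a2l were called, both with a lower genotype effect in ILC2p (-2.23 and -1.60, edgeR adjusted p = 0.0785 and 0.0790), against 7.69% of all genes in that fit. These values rest on the single remaining Tgfbr2-/- ILC2p library, and over all libraries the estimate of Ndufs3 was 0.57.

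Between experiment 2 and experiment 1 of the ILC2s, no subunit gene of 77 was called, against 0.977% of 11981 genes, but 11 had an unadjusted p under 0.05, against 13.3% of all genes. The first was Cox8a, the widely expressed isoform of subunit VIII (mm9 chr19:7289648-7292106, minus strand), whose promoter is shown above. Cox8a was at 389.2, 350.9, 507.8 and 368.2 CPM in the 4 libraries of experiment 1 and at 193.4, 236.1 and 254.1 CPM in the 3 of experiment 2. The experiments did not overlap for Cox8a, nor for Atp5d and Cox4i1. They did not overlap for Ndufa6, Ndufv2, Cox6a1, Sdha and further subunit genes either, so this is not particular to Cox8a. The share of such entries among all was not counted, so no result is drawn from it. The log2 fold change of Cox8a was -0.80 (SE 0.18, edgeR adjusted p = 0.124). Atp5d followed with -0.70 (SE 0.18, adjusted p = 0.146), then Cox4i1 with -0.38 (SE 0.13, adjusted p = 0.263) and Ndufa6 with -0.48 (SE 0.17, adjusted p = 0.273). Ndufv2, a core subunit of complex I, had 0.85 (SE 0.31, adjusted p = 0.291), and DESeq2 called Cox8a and Atp5d, 2 of 77 beside 11.2% of all genes. All 6 widely expressed partners of the tissue-restricted isoforms had negative estimates, from -0.80 to -0.07, and 4 of the 6 did with library size or upper quartile scaling, while Cox7b, not among the 6, had -0.01. Over all subunit genes, 51 of the 77 estimates were negative in the main fit. In the same comparison 6 of 81 tested cytosolic ribosomal protein genes were called lower and none higher, and 5 of 6 tested epithelial genes were called higher.

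In ILC2p no subunit gene of 75 was called between the experiments, and neither was any of 9242 genes (0.00%). At an unadjusted p under 0.05 there were 0 subunit genes, against 3.12% of all genes. The smallest p values belonged to Uqcrq (-1.08), Ndufa3 (-0.96), Uqcrb (1.53), Ndufb5 (-1.17) and Cox6b1 (-0.56), all with an edgeR adjusted p of 0.999. Uqcrq and Uqcrb are neighbouring small subunits of complex III, and they pointed in opposite directions.

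The other genes of the pathway were taken from lists chosen beside the subunits, and their counts stand beside 15.7% of all genes called between ILC2p and ILC2s. Atpif1, the inhibitor of the ATP synthase, was called higher in ILC2p as 1 of 5 subunits and partners that the choice by symbol left out. Its medians were 64.9 CPM in ILC2s and 164.5 CPM in ILC2p (log2 fold change 1.13, SE 0.34, edgeR adjusted p = 0.0403). WT libraries had medians of 79.7 CPM (ILC2s) and 78.9 CPM (ILC2p), and Tgfbr2-/- libraries 62.9 CPM (ILC2s) and 203.8 CPM (ILC2p). The WT medians were thus close and the Tgfbr2-/- medians apart. Atpif1 was not called between the genotypes of either cell type, nor in the difference of their genotype effects. Of 8 carriers and uncoupling proteins, Slc25a3, the phosphate carrier that feeds the synthase, was called lower in ILC2p at 309.3 against 507.1 CPM (-0.81, SE 0.21, adjusted p = 0.0202), and Ucp3 was called lower from under 1 CPM. Ucp2, the most abundant of them, had medians of 949.1, 897.1, 624.7 and 1074 CPM in WT ILC2s, Tgfbr2-/- ILC2s, WT ILC2p and Tgfbr2-/- ILC2p.

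Pdha1, a subunit of pyruvate dehydrogenase, was called higher in ILC2p as 1 of 17 genes of the tricarboxylic acid cycle and its entry (0.80, SE 0.29, edgeR adjusted p = 0.0912). Lyrm7, an assembly factor of complex III, was called lower as 1 of 36 assembly factors, at medians of 2.09 CPM in ILC2s and 0 CPM in ILC2p. Of 8 genes of cytochrome c and of electron donors to ubiquinone, and of 16 genes of mitochondrial transcription, DNA maintenance and biogenesis, 0 were called. Of 77 mitochondrial ribosomal proteins, Mrps14, Mrpl50, Mrpl33 and Mrpl51 were called higher in ILC2p and Mrps6 lower. Mrpl33 stood at medians of 63.1 CPM in ILC2s and 143.7 CPM in ILC2p. In the other 5 comparisons none of these mitochondrial lists had a called gene. Of these lists, the nuclear factors and the assembly factors had the lowest medians in the genotype comparison of ILC2p, -1.57 over 14 genes and -0.97 over 33, beside 0.26 for the subunits and -0.10 for all genes. Nrf1 itself, whose letters are in 9 of the promoter windows, had medians of 131.9 CPM in WT and 1.72 CPM in Tgfbr2-/- ILC2p and was not called. Of the 4 libraries with most gaps, 3 are Tgfbr2-/- (12.1%, 13.8% and 8.35% of abundant entries under 1 CPM) and 1 is WT (14.1%), and the neutrophil and monocyte sums given above differ between the same groups. Their part in the values of Nrf1 and of these lists was not tested.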

How the data were processed

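RNA of 7 ILC2 and 8 ILC2p libraries was sequenced. Per the study's methods, the authors mapped reads to mm9 with TopHat, keeping up to 15 hits (the submitters' processing notes name Bowtie2), and counted reads on genes. Each deposited file holds, per gene, unnormalized read counts and the authors' RPKM over exons. Strand is not stated in the sources used here, so overlapping genes on opposite strands cannot be told apart. Entries joining several genes (205) were not members. Groups were taken from the labels.

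The tests were run in R 4.3.3 with edgeR 4.0.16 (TMM scaling, filterByExpr by group, quasi-likelihood test, Benjamini-Hochberg adjustment over all genes tested). A call needed an adjusted p under 0.1 and a fold over 1.5. ILC2p were compared with ILC2s over cell type by genotype, genotypes with experiment as covariate, and experiments with genotype as covariate. The SE was the log2 fold change over the square root of F. The script was tested on simulated data. Tried beside it were limma 3.58.1 on log2(RPKM + 1), DESeq2 1.42.0, other scalings, filters and thresholds, a replicate block, each experiment or genotype alone, leaving out each library, and, chosen after seeing the data, leaving out the 4 ILC2p libraries with over 5% of abundant genes under 1 CPM.

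Members and gene lists were chosen with earlier results of these data known. Named were the 2 most abundant members of each complex, tissue-restricted isoforms and partners, complex II and c ring genes, called members, those of smallest p up to 5 per comparison, and up to 4 genes of each list. Genes of gaps and of ranges that did not overlap were chosen after their values were seen. Positions are from GENCODE M1. The values of 1 member are not reported here. Replicate libraries differed beyond counting noise, and none was a copy of another.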

Additional observations from a re-analysis of the deposited data

Results flagged for a closer look

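In the 3 groups of 4 libraries, 114 values of named subunit genes and of complex sums were examined. In 9 of them a library stood apart from the other 3. Chance gives about 1 in 20 for independent values. These values share libraries, and the sums hold the named genes, so the 9 cannot be set against that rate. The library ILC2p WT replicate 1 of experiment 1 gave 4 of the 9. In it Cox4i1 was low at 302.7 CPM (others 421.7 to 429.2), Uqcrc1 was high at 970.7 CPM (others 352.1 to 433.8), and the sums of complex I and complex III were high at 4637 CPM (others 2961 to 3129) and 2470 CPM (others 1065 to 1292). This is the library with 8 counts on Tgfbr2 and the largest share of gaps. The library ILC2p Tgfbr2-/- replicate 1 of experiment 1 gave 3, with Cox7a2 at 289.7 CPM (others 56.3 to 81.9), Ndufa3 at 240.8 CPM (others 88.9 to 103.1) and Atp5g1 at 180.9 CPM (others 76.2 to 89.4). The library ILC2 WT replicate 1 of experiment 1 gave 2 that share a gene, with Uqcr10 at 227.0 CPM (others 121.8 to 139.2) and the sum of complex III at 1576 CPM (others 1159 to 1223).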

How the results depend on the processing

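The count of subunit genes called between ILC2p and ILC2s was 1, beside 2010 of all genes (15.7%), and moved with the settings. It was 5 with DESeq2 (4 higher, 1 lower, beside 2557 of all genes), 5 with upper quartile scaling (all lower, 16.6% of all genes), 4 with limma (all lower, 15.6%), 2 with at least 10 counts in every library (13.6%), 2 with experiment within cell type as a term (21.5%), 0 with no filter (14.4%), 0 at an adjusted p under 0.05 with no fold threshold (11.1%), 0 with counts summed within experiment and genotype (5.57%), 0 in WT libraries only (2.56%), and 6 (2 higher, 4 lower, 13.0%) without the 4 ILC2p libraries with most gaps, which leaves 1 Tgfbr2-/- ILC2p library. Leaving out each library gave 0 to 3 (11.9% to 19.6% of all genes), with 3 without ILC2p Tgfbr2-/- replicate 1 of experiment 2 (19.6%), 2 without replicate 1 of experiment 1 of that group (16.6%), and 0 (11.9% to 15.1%) without any of the ILC2 libraries other than WT replicate 1 of experiment 2, or without ILC2p WT replicate 2 of experiment 1. Atp5d kept its sign in all 26 alternatives (-1.13 to -0.55, adjusted p = 0.00808 to 0.542, by edgeR, DESeq2 or limma) and was called in 13. Of the members next in order of p, Cox7a1 was called with experiment within cell type as a term and without ILC2p WT replicate 1 of experiment 2 (adjusted p = 0.0294 in the latter, edgeR), Ndufb9 with DESeq2 (0.0223), Sdhb without ILC2p Tgfbr2-/- replicate 1 of experiment 2 (0.0863), and Atp5s in 4 of 25 alternatives (lowest 0.0509). Between the experiments of ILC2s, DESeq2 called 2 members (beside 11.2% of all genes) and no filter 1 (1.88%), in place of 0 (0.977%). For the genotype effect between cell types, 2 were called without the 4 libraries, beside 1136 of all genes (7.69%). The genotype comparisons, and that of the ILC2p experiments, gave 0 under all settings run, leaving out each library included.

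Among the named members of smallest p, the estimates that turned were Ndufs8 and Uqcrc1 in ILC2s in experiment 2 alone (0.030 and 0.18), Atp5b in ILC2p in experiment 2 alone (-0.025) and without the 4 libraries (-0.12), Ndufb7 without the 4 libraries (-0.24), and Cox7a1 in the difference of genotype effects without ILC2p WT replicate 1 of experiment 2 (0.82, its range over left-out libraries being -8.23 to 0.82). Outside them, Ndufs3 went from 0.02 to -1.19 between cell types and from 0.57 to -2.23 in the difference of genotype effects without the 4 libraries. The causes were not tested.

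Counts of all called genes between cell types were 2010 against 479 with at least 10 counts in every library, 766 with summed counts and 268 in WT libraries only, and between the ILC2 experiments 117 against 1347 with DESeq2 and 320 with no filter. Same-numbered libraries did not vary together over genes (r = -0.06, -0.01 and -0.05). Each r rests on a single pair of libraries per genotype, so it cannot exclude that they were paired. With the replicate block, 0 members were called in either genotype comparison, and all calls in ILC2p went from 321 to 175. DESeq2 called 1229 of all genes there, and 1492 in place of 127 for the difference of genotype effects.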
